A study of Mus musculus with 6 samples.

Results

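The group IV cytosolic phospholipase A2 (cPLA2) family comprises the genes *Pla2g4a* to *Pla2g4f*. All 6 were chosen by name and found among the 55357 genes counted in the files, and all 6 are among the 21876 genes tested. They were followed in 6 RNA-seq libraries of wild type mouse primary neuronal cultures, prepared from the cortex and hippocampus of E18 C57BL/6N embryos. The cultures were transduced at DIV4 (DIV, day in vitro) with lentiviral particles and collected at DIV14. In 3 cultures (shCtrl) the particles expressed a control or scrambled shRNA, and in the other 3 (sh*Pla2g4e*) an shRNA against *Pla2g4e*, sh2 by its published name. The sh*Pla2g4e* cultures thus carried 1 of the 3 shRNA sequences designed against *Pla2g4e*, and every culture received a lentivirus. The labels do not say whether the cultures came from separate dissections, so that p-values measure the spread between these samples, which may be technical.

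Enzymes of the family cleave fatty acids from membrane phospholipids. The product of *Pla2g4a*, cPLA2α, is the classical calcium-dependent enzyme that releases arachidonate for the synthesis of prostaglandins and leukotrienes. The product of *Pla2g4e* works chiefly as a calcium-dependent N-acyltransferase, which moves an acyl chain onto phosphatidylethanolamine to give the precursors of N-acylethanolamines such as anandamide, and it resides on membranes of the endocytic recycling pathway. Most members carry a calcium-binding C2 domain, which the product of *Pla2g4c* lacks.

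The sequences that set which member could pair fully with the shRNA are shown first. The 3 target sites of 19 nt read as follows in the mRNA sense, with the bases facing the guide's seed (its bases 2 to 8) in capitals:
sh1: ggtctatggtcTCCTTGTa
sh2: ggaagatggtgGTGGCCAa
sh3: gggagagaactATGAGCTa
The guide strand of sh2, with its seed in capitals, is the reverse complement of that site:
sh2 guide: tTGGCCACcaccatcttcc

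The sh2 site lies in coding exon 11 of *Pla2g4e*, at chr2:120182753-120182771 on the minus strand of GRCm38, and occurs in 3 of the 4 annotated *Pla2g4e* transcripts. It matched exactly in 1 gene, *Pla2g4e*, of the 55320 genes whose annotated transcripts (GENCODE vM21) were searched. The qPCR primers designed for *Pla2g4e* amplify 118 nt of exon 8 that end 219 nt upstream of this site. For the other members, the window most like the site in the transcript with the longest coding sequence is given, with bases that differ from sh2 in capitals. For *Pla2g4a* and *Pla2g4c*, which had 3 and 2 windows with equally few differences, the first of them is shown:
*Pla2g4d*: ggaagaAggtggtggcTGC
*Pla2g4f*: ggaagCAggtggCgTccaa
*Pla2g4b*: ggaagCAggtggtggcTGC
*Pla2g4a*: ggaagTtTgtTCATgccCa
*Pla2g4c*: ggaagatgAGCTGTgccGa

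The windows of *Pla2g4d* and *Pla2g4f* differed from the site at 4 positions, and both lie in exon 11 of the coding sequence, the same exon number as the site in *Pla2g4e*. Counted from 1 at the 5′ end of the site, the substitutions were T7A, C17T, A18G and A19C in *Pla2g4d* and A6C, T7A, T13C and G15T in *Pla2g4f*. The window of *Pla2g4b*, also in exon 11, differed at 5 positions, 3 of them in the last 3 bases. Those of *Pla2g4a*, in exon 6, and *Pla2g4c*, across the start of the coding sequence, differed at 7 positions each. Of 21877 coding genes, 1.89% had a window with at most 4 differences in their longest coding transcript, 11.7% with at most 5 and 84.2% with at most 7. The 7 bases GTGGCCA that pair with the seed were present once in *Pla2g4e* (inside the site), once in the coding sequence of *Pla2g4a* and once in the 5′ UTR of *Pla2g4b*. They were absent from the transcripts searched for *Pla2g4c*, *Pla2g4d* and *Pla2g4f*, against a share of 33.0% of coding genes that hold them.

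The encoded proteins have between 607 (*Pla2g4c*) and 875 (*Pla2g4e*) residues. Aligned end to end, the product of *Pla2g4e* was identical to that of *Pla2g4d* at 44.9% of aligned residues, to that of *Pla2g4b* at 44.1% and to that of *Pla2g4f* at 39.1%. It shared 33.9% with cPLA2α and 32.1% with the product of *Pla2g4c*. The closest pair in the family was *Pla2g4b* and *Pla2g4d*, at 48.2%. *Pla2g4b*, *Pla2g4d*, *Pla2g4e* and *Pla2g4f* lie on the same chromosome, and the other members lie elsewhere. In the coordinates of the deposited counts (GRCm39), *Pla2g4e* (chr2:119996893-120075816), *Pla2g4d* (chr2:120096076-120119678) and *Pla2g4f* (chr2:120130438-120144646) follow each other on the minus strand, and *Pla2g4b* (chr2:119863898-119873511) lies on the plus strand beyond *Ehd4*. *Pla2g4a* is at chr1:149705369-149837041 on the minus strand, and *Pla2g4c* at chr7:13058580-13094597 on the plus strand.

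**Figure D1:**
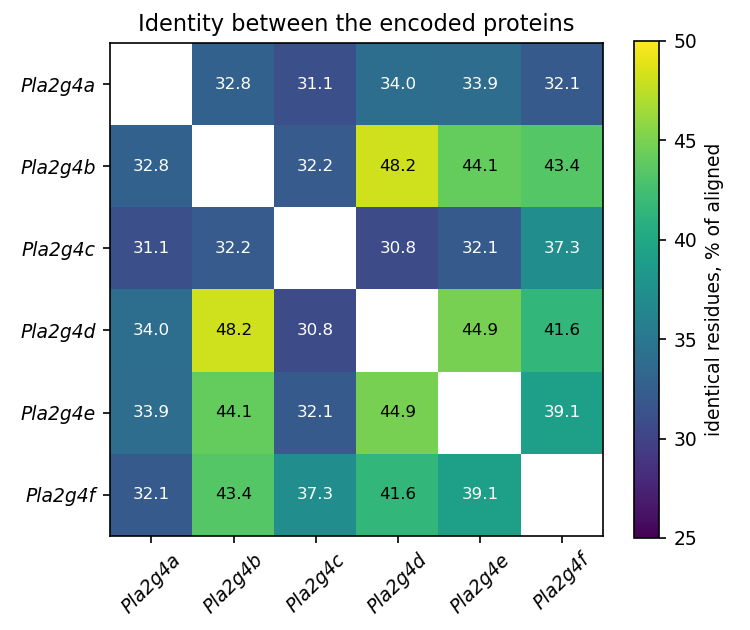
Percentage of identical residues between each pair of the 6 encoded proteins, as a grid with 1 row and 1 column per gene, coloured from 25% (dark) to 50% (light). *Pla2g4b*, *Pla2g4d*, *Pla2g4e* and *Pla2g4f* share between 39.1% and 48.2% with each other, and *Pla2g4a* shares at most 34.0% with any member.

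Reads counted on genes ranged from 17054717 to 23570180 per library. Values are CPM (a gene's reads relative to the reads of its library, after TMM scaling). Differences were tested by the quasi-likelihood method of edgeR, with Benjamini-Hochberg adjustment over all genes tested and a threshold of 0.01. Among the marker genes checked, those of neurons were abundant (4567 to 4987 CPM summed over 8 genes in shCtrl and 4007 to 4474 in sh*Pla2g4e*), with *Rbfox3*, *Map2* and *Tubb3* called lower and *Nefl* called higher. Astrocyte markers were also abundant (2826 to 3630 against 1899 to 3082 CPM over 8 genes, with *Aqp4*, *Slc1a2* and *Gja1* called lower), although the labels give the cells as neurons. Microglia markers summed to 3.98 to 9.68 CPM in shCtrl and 3.05 to 5.485 CPM in sh*Pla2g4e*, oligodendrocyte lineage markers to 516.4 to 585.4 and 536.3 to 640.3 CPM, and endothelial and mural markers, of which *Cldn5* was at 0, to 27.5 to 71.5 and 32.2 to 77.0 CPM. None of these 3 lists had a call in edgeR (3, 1 and 1 of their genes had an unadjusted p under 0.05), limma or DESeq2. Proliferation markers summed to 23.6 to 42.7 CPM in shCtrl and 11.5 to 21.8 in sh*Pla2g4e* cultures, and of the 4 genes, all with estimates below 0, *Top2a* was called lower. Under the replicate block, 3 neuron markers were called lower and 2 higher, 6 astrocyte markers lower and 1 higher, 2 proliferation markers lower, *Olig2* of the oligodendrocyte lineage lower and *Kdr* of endothelial cells higher. The calls of *Tubb3* and *Aqp4* were kept in every edgeR fit with 1 library less, that of *Aqp4* being lost in the robust fit (adjusted p = 0.122) and with DESeq2 (0.0124). Those of *Map2* and *Nefl* were lost without shCtrl replicate 2 and that of *Gja1* without sh*Pla2g4e* replicate 1 or 2, those of *Rbfox3* and *Slc1a2* without any 1 library other than shCtrl replicate 3 and sh*Pla2g4e* replicate 3 respectively, and that of *Top2a* without shCtrl replicate 2 or 3 or sh*Pla2g4e* replicate 1 or 2 (adjusted p between 0.01017 and 0.0552). With all libraries, the call of *Slc1a2* was also lost with upper-quartile scaling, library size alone and both stricter filters (at least 10 reads in every library, or filterByExpr of edgeR), that of *Top2a* with library size alone, both filters and the robust fit, and that of *Gja1* in the robust fit (adjusted p between 0.01067 and 0.0196). With the replicate block *Rbfox3*, *Map2*, *Nefl*, *Slc1a2*, *Gja1* and *Top2a* kept their calls, with an adjusted p of at most 8.074e-07 (*Rbfox3*) in edgeR. The part of these shifts in the results below was not tested, and in bulk RNA fewer cells of a type and less RNA per cell cannot be told apart.

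*Pla2g4e* was the only member called, and it fell. Of the 6 members 1 was called lower and 0 higher in sh*Pla2g4e* cultures, where 4.00% of all genes tested were called lower, 2.48% higher and 6.49% in either direction. The same 1 and 0 members were called by limma after voom and by DESeq2, and none of the other 5 had an unadjusted p under 0.05 in edgeR. *Pla2g4e* had 783, 697 and 797 reads (38.0, 35.1 and 35.4 CPM) in shCtrl replicates 1 to 3 and 522, 306 and 328 reads (21.8, 14.15 and 18.7 CPM) in sh*Pla2g4e* replicates 1 to 3. The groups did not overlap, which was the case for 30.0% of all genes tested. The level was 36.15 ± 1.597 CPM in shCtrl and 18.2 ± 3.87 CPM in sh*Pla2g4e* (SD, n = 3 each). The log2 fold change was −0.99 with a 95% interval of −1.26 to −0.71 (adjusted p = 1.236e-04 in edgeR). Between cultures of the same replicate number, 57.5%, 40.3% and 53.0% of the level was left in pairs 1, 2 and 3. The 3 shCtrl libraries varied little more than counting error alone would give (coefficient of variation 4.42%, counting part 3.63%), whereas the sh*Pla2g4e* libraries varied by 21.2%, with a counting part of 5.09%. The targeted gene did not head the list of changes. Of the 876 genes called lower, 174 had a smaller p and 104 a more negative log2 fold change, 45 of which were at least as abundant on average as *Pla2g4e*.

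**Figure D2:**
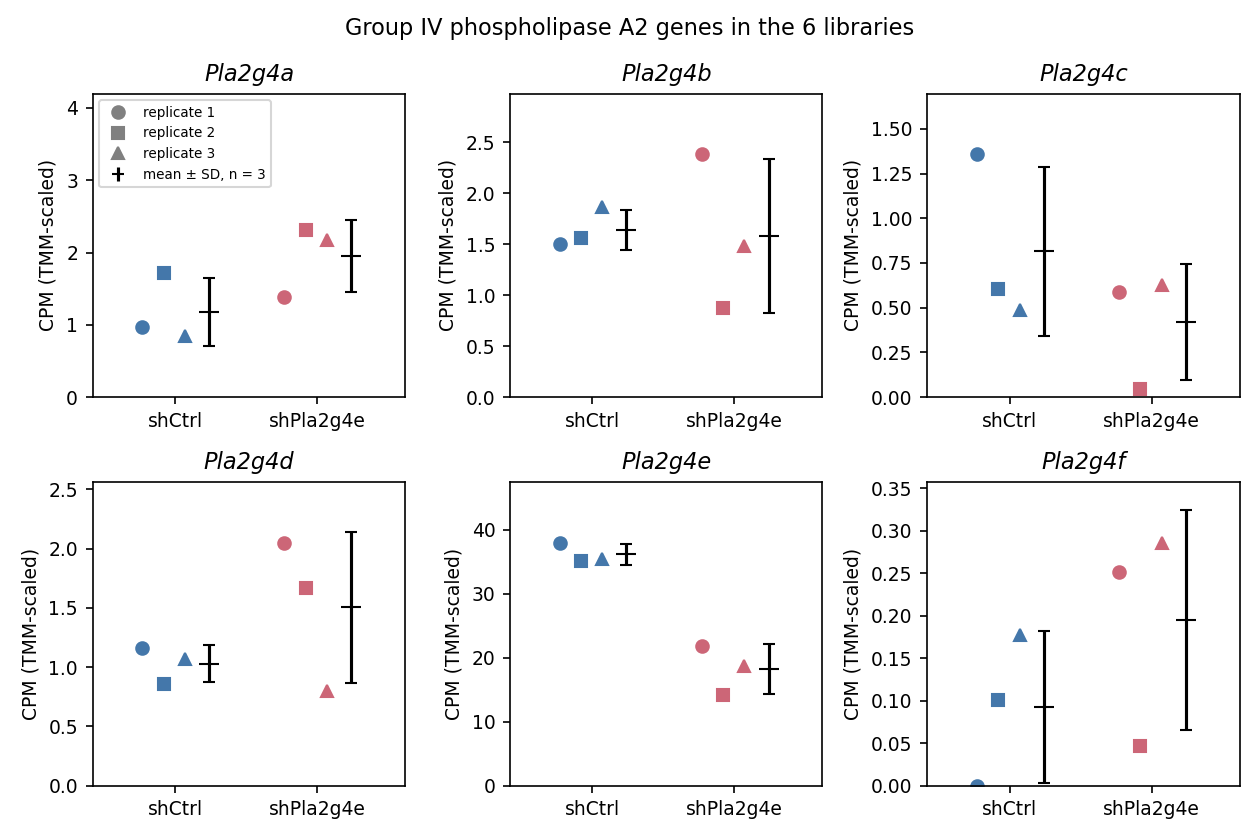
CPM of the 6 members in each library, with 1 panel per gene and a linear axis from 0 that differs between panels. Points are libraries (marker shape gives the replicate number) and bars the mean ± SD of 3. For *Pla2g4e* all 3 shCtrl libraries (35.1 to 38.0 CPM) lie above all 3 sh*Pla2g4e* libraries (14.15 to 21.8 CPM), and in the other 5 panels the groups overlap.

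*Pla2g4a*, the arachidonate-releasing enzyme, did not pass the test. It had 20, 34 and 19 reads (0.970, 1.71 and 0.844 CPM) in shCtrl and 33, 50 and 38 reads (1.38, 2.31 and 2.17 CPM) in sh*Pla2g4e* cultures. The groups overlapped, because shCtrl replicate 2 was above sh*Pla2g4e* replicate 1, but within each replicate number the sh*Pla2g4e* library was the higher one. The log2 fold change was 0.73, with a 95% interval of −0.04 to 1.4998 (adjusted p = 0.219 in edgeR). When the replicate number entered as a block, the interval was 0.06 to 1.44, and the adjusted p of 0.122 still missed the threshold. Over the 17 alternative settings the log2 fold change stayed above 0, from 0.54 to 1.10, and the adjusted p was between 0.122 and 0.465.

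None of the 6391 exon bases of *Pla2g4a* lie in exons of another gene. *Ptgs2*, which encodes the inducible cyclooxygenase that acts on the arachidonate released, starts 138740 bases away on the other strand. The nearest genes with reads on either side, *Gm38189* (7 reads, all in sh*Pla2g4e* replicate 1) and *Ptgs2os* (0 to 6 reads per library), were too low to compare.

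*Pla2g4b*, which encodes cPLA2β, was counted from a small part of its exons. Of its 5831 exon bases 3878 (66.5%) also belong to the overlapping gene model *Gm28042* on the same strand, and 792 (13.6%) to *Sptbn5*, a spectrin gene on the opposite strand. The counting left out reads that fall in exons of more than 1 gene, and *Gm28042*, which shares 99.9% of its own 5188 bases with other genes, accordingly had 0 reads in all 6 libraries. This left 1953 bases in which a *Pla2g4b* read could be counted. In its coding transcript 97.3% of all stretches of 50 bases recur in a transcript of another gene, while the figure was 2.66% for *Pla2g4c*, 2.39% for *Pla2g4e* and 0 for the other 3 members. The counted reads were 31, 31 and 42 (1.504, 1.56 and 1.865 CPM) in shCtrl and 57, 19 and 26 (2.38, 0.879 and 1.485 CPM) in sh*Pla2g4e*. The highest and the lowest of the 6 libraries were both sh*Pla2g4e* libraries, and the log2 fold change was −0.05 (95% interval −0.81 to 0.72, adjusted p = 0.958 in edgeR). Across alternatives it lay between −0.49 and 0.25, below 0 in 14 of 17.

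*Pla2g4c*, whose product lacks the C2 domain, had 28, 12 and 11 reads (1.358, 0.604 and 0.488 CPM) in shCtrl and 14, 1 and 11 reads (0.586, 0.0462 and 0.629 CPM) in sh*Pla2g4e*. The spread within each group was as wide as the gap between them, since the highest value came from shCtrl replicate 1 and the lowest, a single read, from sh*Pla2g4e* replicate 2. The fitted log2 fold change of −0.96 was close to that of *Pla2g4e*, but its 95% interval ran from −2.40 to 0.48 (adjusted p = 0.422 in edgeR). Leaving out shCtrl replicate 1 gave −0.38, and leaving out sh*Pla2g4e* replicate 2 gave −0.42, and the test called no difference. The libraries varied more than counting error alone would give (coefficient of variation 57.8% with a counting part of 24.2% in shCtrl, and 77.2% with 34.0% in sh*Pla2g4e*). The neighbouring gene on chromosome 7, *Lig1* of DNA ligase 1, had 27.1 ± 1.107 and 23.15 ± 2.11 CPM (SD, n = 3 each), and its log2 fold change of −0.23 did not pass (adjusted p = 0.188 in edgeR).

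*Pla2g4d* and *Pla2g4f* encode cPLA2δ and cPLA2ζ and are the nearest genes of the family to *Pla2g4e*. *Pla2g4d* had 24, 17 and 24 reads (1.164, 0.856 and 1.066 CPM) in shCtrl and 49, 36 and 14 reads (2.05, 1.664 and 0.7999 CPM) in sh*Pla2g4e* cultures. The first and second sh*Pla2g4e* libraries lay above all shCtrl libraries and the third below them, and the log2 fold change was 0.56 (95% interval −0.26 to 1.39, adjusted p = 0.409 in edgeR). It was 0.28 without sh*Pla2g4e* replicate 1 and 0.85 without sh*Pla2g4e* replicate 3. *Pla2g4f* had 0, 2 and 4 reads in shCtrl and 6, 1 and 5 in sh*Pla2g4e*. It entered the test through 1 library alone, sh*Pla2g4e* replicate 1, whose 6 reads met the minimum. In shCtrl replicate 1 a count of 0 allows a level of up to 0.1455 CPM (3 reads), so that *Pla2g4f* was at or near the limit of detection in all 6 libraries. Its fitted log2 fold change of 0.99 had a 95% interval of −1.63 to 3.61 (adjusted p = 0.686 in edgeR), and lay between 0.44 (without shCtrl replicate 1) and 1.83 (without shCtrl replicate 3) when 1 library was left out. The fit without sh*Pla2g4e* replicate 1 gave no value, since *Pla2g4f* then missed the minimum.

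The precision differed widely across the family. The 95% interval of the log2 fold change spanned −1.26 to −0.71 for *Pla2g4e*, which had 306 to 797 reads per library, and up to −1.63 to 3.61 for *Pla2g4f*, which had 0 to 6.

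**Figure D3:**
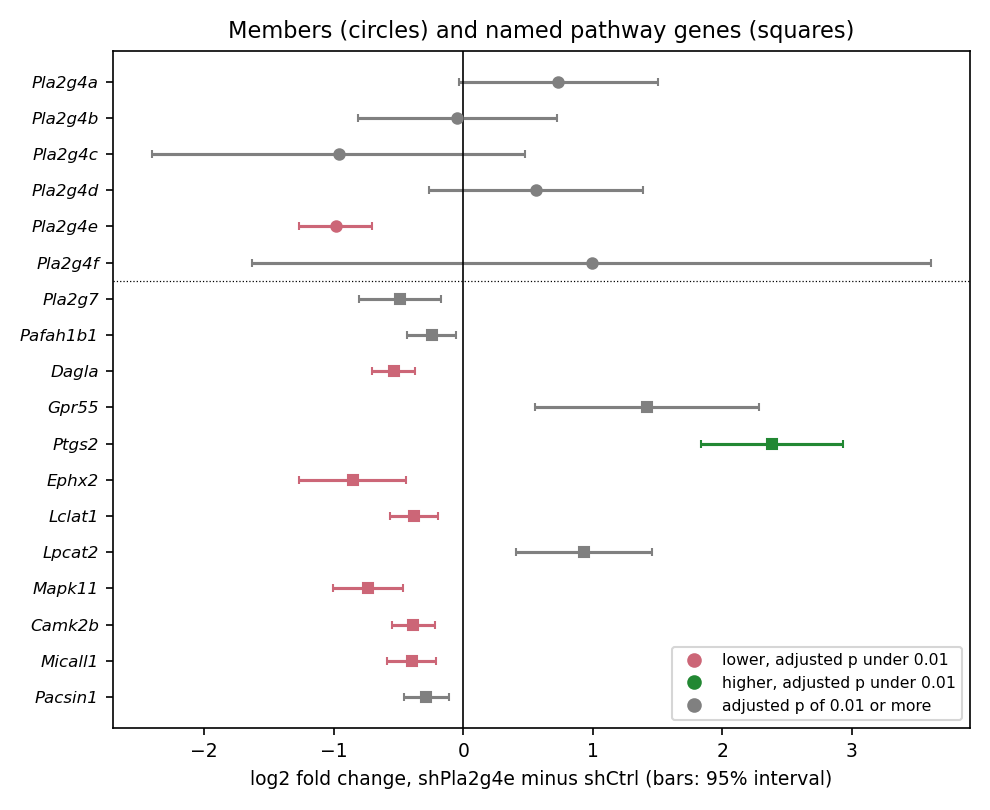
Log2 fold change (sh*Pla2g4e* minus shCtrl) on the horizontal axis for the 6 members (circles) and 12 named genes of related pathways (squares), with bars for the 95% interval and colour for genes with an adjusted p under 0.01 in edgeR. Among the members only *Pla2g4e* (−0.99) is coloured, and the intervals of the other 5 cross 0. *Ptgs2* (2.38) is the only gene coloured as higher.

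Levels of different members were compared as RPKM, that is CPM per kilobase of exon length. In shCtrl cultures *Pla2g4e* was at 5.19 ± 0.229 RPKM (SD, n = 3), and the other 5 had means of 0.282 (*Pla2g4b*), 0.279 (*Pla2g4d*), 0.218 (*Pla2g4c*), 0.184 (*Pla2g4a*) and 0.0290 RPKM (*Pla2g4f*). The libraries of *Pla2g4e* did not overlap with those of *Pla2g4b*, and those of *Pla2g4a* did not overlap with those of *Pla2g4f*, whereas every other pair of neighbours in this order overlapped. In sh*Pla2g4e* cultures *Pla2g4e* still had the highest level, 2.62 ± 0.556 RPKM, followed by *Pla2g4d* (0.408), *Pla2g4a* (0.306), *Pla2g4b* (0.271), *Pla2g4c* (0.112) and *Pla2g4f* (0.0607), and only *Pla2g4e* stood clear of its neighbour. Exon length covers all annotated exons, 6391 bases for *Pla2g4a* against 2856 nt in its transcript with the longest coding sequence. For *Pla2g4d* both were 3688. Levels per transcript length were not computed, and the order can depend on this choice. The place of *Pla2g4b* did depend on the length used. Per kilobase of the 1953 bases in which its reads could be counted, an alternative chosen after seeing the data, its level was 0.841 ± 0.0994 RPKM in shCtrl, clear of *Pla2g4d*, and 0.810 ± 0.388 in sh*Pla2g4e*.

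**Figure D4:**
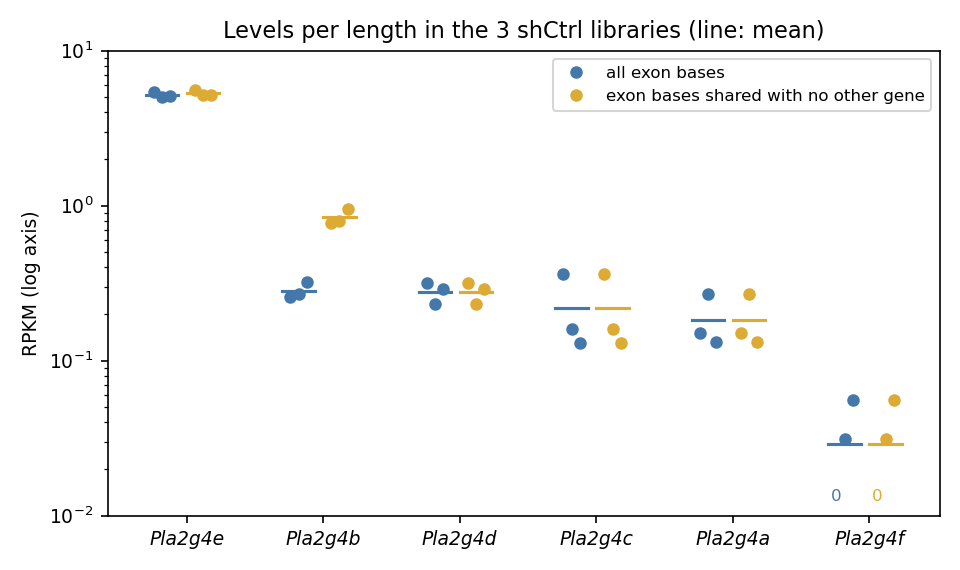
RPKM on a log axis for the 6 members in the 3 shCtrl libraries (points) with their mean (lines), per kilobase of all exon bases or of the exon bases shared with no other gene. *Pla2g4e* lies at about 5 on both scales (5.19 and 5.31), *Pla2g4b* moves from 0.282 to 0.841, and a 0 marks the library without a *Pla2g4f* read.

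*Pla2g4e* thus supplied most of the family's transcripts. It made up 87.9% to 88.9% of the family's reads in the shCtrl libraries and 74.1% to 77.7% in the sh*Pla2g4e* libraries, and 83.4% to 84.6% and 67.2% to 71.6% of their summed RPKM. Per kilobase of the bases in which reads could be counted, which raises the level of *Pla2g4b*, the share of summed RPKM was 76.9% to 77.7% and 59.0% to 63.6%. The summed family level was 43.0, 39.9 and 39.8 CPM in shCtrl and 28.5, 19.1 and 24.1 CPM in sh*Pla2g4e*. Without *Pla2g4e*, the other 5 members together had 4.997, 4.83 and 4.44 CPM against 6.65, 4.95 and 5.37 CPM, and these groups overlapped, although within each of the 3 replicate numbers the sh*Pla2g4e* library was the higher one. This sum was not tested. Among all 21876 genes tested, 63.3% had a lower RPKM than *Pla2g4e* in shCtrl and 51.7% in sh*Pla2g4e*. For the other members the share in shCtrl was between 3.48% (*Pla2g4f*) and 23.5% (*Pla2g4b*).

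The genes next to *Pla2g4e* were not called. Between *Pla2g4e* and *Pla2g4b* lies *Ehd4*, an EH-domain gene of endocytic recycling, 11805 bases from the end of *Pla2g4e*. It had 17.85, 15.6 and 11.3 CPM in shCtrl and 18.1, 18.4 and 11.9 CPM in sh*Pla2g4e*, so that the difference was 0.12 on the log2 scale (adjusted p = 0.737 in edgeR). *Vps39*, a subunit of the HOPS tethering complex beside *Pla2g4f*, had 108.1 ± 5.57 and 95.03 ± 11.5 CPM (SD, n = 3 each; log2 fold change −0.19, adjusted p = 0.221). Of 23 other tested genes with exons within 500 kb of the *Pla2g4e* start, 1 was called lower (*Mapkbp1*, −0.35) and 3 higher (*Ganc* 0.50, *Tyro3* 0.49 and *Itpka* 0.755 on the log2 scale), where 4.00% of all genes tested were called lower and 2.48% higher. The 17 of them with at least 8 CPM in shCtrl had log2 fold changes between −0.35 and 0.755. These 4 were named after their values were seen. *Itpka* kept its call under all 17 alternatives. The call of *Mapkbp1* was lost without any 1 library other than shCtrl replicate 3 (adjusted p = 0.0155 to 0.0468 in edgeR) and with upper-quartile scaling (0.01175) or library size alone (0.01775), that of *Ganc* without any 1 other than sh*Pla2g4e* replicate 3 (0.0181 to 0.0321), and that of *Tyro3* without shCtrl replicate 2 (0.0153) or sh*Pla2g4e* replicate 1 (0.0164). The replicate block removed none of these 4 calls. *Gm13997*, which shares 153 exon bases with *Pla2g4e*, had 0 to 5 reads per library and was not tested.

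**Figure D5:**
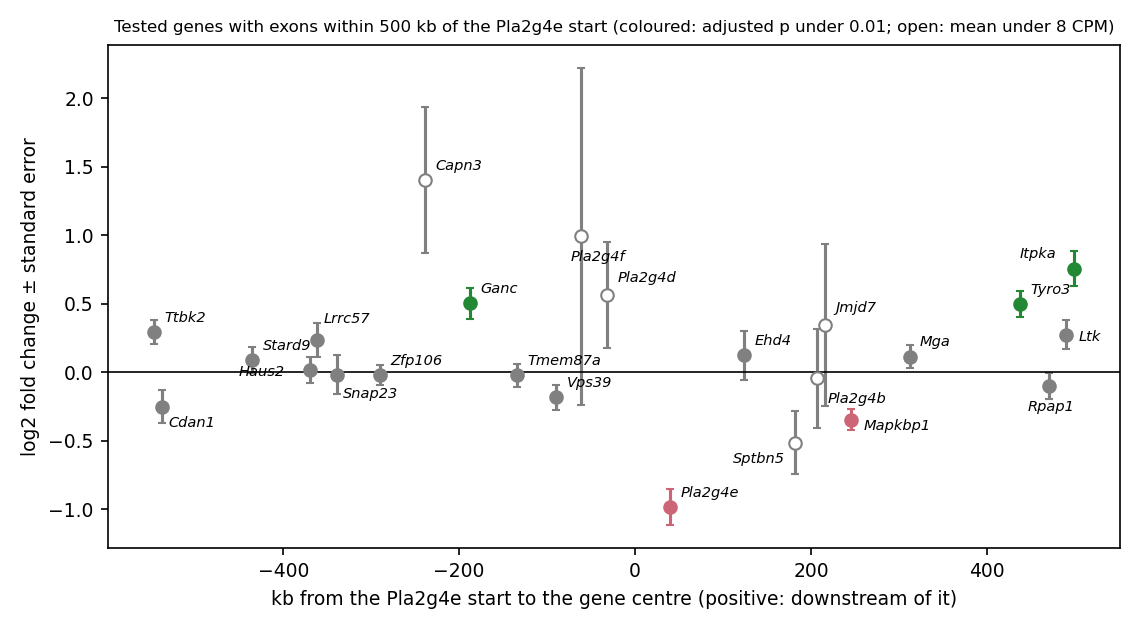
Log2 fold change ± standard error of the 24 tested genes with exons within 500 kb of the *Pla2g4e* start, against the distance in kb from that start to each gene's centre. Open symbols are genes with a mean under 8 CPM. *Pla2g4e* (−0.99) lies below every other gene. Its neighbours *Ehd4* (0.12) and *Pla2g4d* (0.56) had no call, nor had *Vps39* (−0.19) beside *Pla2g4f*.

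To show which genes varied most like each member over the 6 libraries, log2 CPM was centred on each gene's mean, and the root mean square difference was taken over 10931 genes with a mean of at least 8 CPM. The closest to *Pla2g4e* were *Nwd2* (0.0640), *Map3k5* of the kinase ASK1 (0.0766) and *Hapln1*, a link protein of the hyaluronan matrix (0.0808), while *Pla2g4e* itself varied by 0.536 around its mean. *Nwd2*, for example, had 254.3, 223.8 and 213.0 CPM in shCtrl and 127.1, 88.8 and 117.5 CPM in sh*Pla2g4e*, and like *Pla2g4e* was lowest in sh*Pla2g4e* replicate 2. For *Pla2g4a* the closest were *Efemp1* (0.116), *Mtus1* (0.191) and *Mdk* (0.211), which like it were highest in sh*Pla2g4e* replicate 2. For *Pla2g4d* they were *Glp1r* (0.1801), *Lif* (0.186) and *Zbed5* (0.210), and for *Pla2g4b* *Grin1os* (0.1998), *Sstr3* (0.214) and *Gm37773* (0.222). All these genes were picked for likeness over the same 6 libraries, so a shared highest or lowest library follows from the choice. With 6 libraries and reads as few as 14 per library, likeness to *Pla2g4a*, *Pla2g4b* and *Pla2g4d* carries their counting error.

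Genes that act beside the family were counted in 6 lists of related function. Of the 83 genes tested over the lists 7 (8.43%) were called, 6 lower and 1 higher, beside 6.49% of all genes tested. With the replicate block 18 (21.7%) were called, 14 lower and 4 higher, beside 15.5% of all genes, and leaving out shCtrl replicate 1, shCtrl replicate 2 or sh*Pla2g4e* replicate 1 left 4, 3 and 3 calls. Of 14 tested genes for other phospholipases A2 or their subunits, 0 were called in either direction in edgeR, and their median log2 fold change was −0.05, beside 0.03 over all genes tested. At an unadjusted p under 0.05 there were 4 lower and 1 higher, and limma after voom and DESeq2 called 0 as well. *Pla2g7*, which encodes the plasma form of platelet-activating factor acetylhydrolase, had the smallest p, with 134.2 ± 26.8 and 95.9 ± 22.5 CPM (SD, n = 3 each; adjusted p = 0.0409 in edgeR). Under the replicate block, 3 of this list were called lower, *Pla2g7* (adjusted p = 1.166e-07), *Pafah1b1* (a regulatory subunit, 0.00132) and *Prdx6* (1.465e-04, named after its value was seen).

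Of 18 tested genes that make, degrade or sense N-acylethanolamines, which form downstream of the *Pla2g4e* enzyme, or other endocannabinoids, 1 was called lower and 0 higher in edgeR, limma and DESeq2 alike (3 lower and 1 higher at an unadjusted p under 0.05), with a median log2 fold change of −0.07. This was *Dagla*, the diacylglycerol lipase that makes 2-arachidonoylglycerol. It had 108.7, 107.0 and 97.2 CPM in shCtrl and 72.15, 72.9 and 70.45 CPM in sh*Pla2g4e*, without overlap. The log2 fold change was −0.54 (adjusted p = 2.818e-04 in edgeR), and it passed under all 17 alternatives. *Gpr55*, a receptor for lysophosphatidylinositol, had 0.727 ± 0.211 and 1.978 ± 0.912 CPM and passed under 3 of 17 alternatives, the replicate block among them (adjusted p = 0.0312 in edgeR, 0.00591 with the block).

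Of 17 tested genes that convert arachidonate, 1 was called lower and 1 higher in edgeR (median log2 fold change 0.16). Limma called 0 lower and 1 higher and DESeq2 1 and 1, and 3 and 3 had an unadjusted p under 0.05. *Ptgs2* had 13.5, 6.44 and 14.4 CPM in shCtrl and 74.75, 68.7 and 36.1 CPM in sh*Pla2g4e* cultures. All sh*Pla2g4e* libraries were above all shCtrl libraries, and the level was 5.23 times as high (log2 fold change 2.38, 95% interval 1.84 to 2.93, adjusted p = 1.726e-05 in edgeR, but 0.0415 in its robust fit). *Ephx2*, the soluble epoxide hydrolase, was called lower (10.7 ± 3.15 against 5.91 ± 0.470 CPM, adjusted p = 0.00805 in edgeR), a call that was lost under 9 of 17 alternatives. Among these were the fits without shCtrl replicate 1 (adjusted p = 0.0105), shCtrl replicate 2 (0.0719), sh*Pla2g4e* replicate 1 (0.0270) and sh*Pla2g4e* replicate 2 (0.0308). With the replicate block both calls were kept, at an adjusted p of 3.471e-22 for *Ptgs2* and 2.94e-05 for *Ephx2* in edgeR.

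Of 8 genes that reacylate lysophospholipids, 1 was called lower, *Lclat1* (61.3 ± 3.38 against 47.2 ± 3.46 CPM, adjusted p = 0.00882 in edgeR), and 0 were called higher. Their median log2 fold change was −0.24. Limma called 1 lower and 0 higher and DESeq2 2 and 0, and at an unadjusted p under 0.05 there were 5 and 1. The call of *Lclat1* was lost under 7 of 17 alternatives, among them the fits without shCtrl replicate 1 (adjusted p = 0.0354), shCtrl replicate 2 (0.0558), sh*Pla2g4e* replicate 1 (0.0595) and sh*Pla2g4e* replicate 3 (0.0161). With the block 3 were called lower, *Lclat1* among them (adjusted p = 1.157e-04 in edgeR), and 1 higher. The latter was *Lpcat2* (2.09 ± 0.239 against 3.99 ± 0.872 CPM, adjusted p = 0.0206 without the block and 0.00294 with it). Of 11 genes for kinases and other regulators of group IV enzymes, 2 were called lower and 0 higher in edgeR, and with the block 4 were called lower and 1 higher. Limma called 3 lower and 0 higher and DESeq2 4 and 0, and 6 were lower and 1 higher at an unadjusted p under 0.05. Their median log2 fold change was −0.17. *Mapk11*, a p38 MAP kinase, fell by 0.73 on the log2 scale, from 31.0 ± 3.08 to 18.7 ± 3.125 CPM (adjusted p = 0.00112), and kept its call under all 17 alternatives. *Camk2b*, a subunit of CaM kinase II, fell by 0.38 on the log2 scale, from 830.6 ± 30.6 to 636.4 ± 32.2 CPM (adjusted p = 0.003796). The call was lost in 4 fits with 1 library less, those without shCtrl replicate 1 (adjusted p = 0.0135), shCtrl replicate 2 (0.0371), sh*Pla2g4e* replicate 1 (0.0166) or sh*Pla2g4e* replicate 2 (0.0212). With the block the call of *Camk2b* was kept (adjusted p = 4.343e-07 in edgeR).

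Of 15 genes of clathrin-independent endocytic recycling, the compartment in which the *Pla2g4e* enzyme resides, 1 was called lower and 0 higher in edgeR, and with the block 2 were called lower. By limma 1 was called lower and 0 higher, by DESeq2 2 and 0, and 4 and 1 had an unadjusted p under 0.05. Their median log2 fold change was −0.14. *Micall1*, a scaffold of recycling tubules, had 59.2, 52.7 and 54.6 CPM in shCtrl and 40.5, 45.2 and 40.6 CPM in sh*Pla2g4e* (log2 fold change −0.40, adjusted p = 0.00630 in edgeR). Its call was lost under 7 of 17 alternatives, 5 of them fits with 1 library less. Leaving out shCtrl replicates 1, 2 and 3 gave an adjusted p of 0.0332, 0.01852 and 0.0135, and leaving out sh*Pla2g4e* replicates 1 and 3 gave 0.0398 and 0.0140. With the block the call of *Micall1* was kept (adjusted p = 9.175e-05 in edgeR). *Pacsin1* had 297.1 ± 12.5 and 243.8 ± 19.9 CPM (adjusted p = 0.0315, and 3.294e-04 with the block). *Arf6*, the GTPase of this route, had 40.1, 35.4 and 35.2 against 33.1, 42.7 and 32.6 CPM (adjusted p = 0.910, named as the route's GTPase outside the rule for named genes).

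Beside these calls stands the seed of the sh2 guide. The bases GTGGCCA were present in the 3′ UTR of 43.0% of 854 genes called lower, 7.10% of 479 called higher and 13.4% of all 15654 genes in the test with an annotated 3′ UTR. Of the 6 pathway genes called lower, 4 held them in the 3′ UTR (*Dagla*, *Lclat1*, *Mapk11* and *Micall1*), *Ephx2* held them in the coding sequence alone and *Camk2b* in neither, as did *Ptgs2*, which was called higher. Of the members, none held them in the 3′ UTR. In the coding sequence they were present in 38.9% of the same genes called lower, 22.8% of those called higher and 25.3% of all. The lengths of the 3′ UTRs were not matched between these sets. The part of the seed in these differences, next to that of a lower *Pla2g4e* level, was not tested, and with 1 shRNA sequence the 2 cannot be told apart.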

How the data were processed

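Poly(A) RNA was sequenced from 6 cultures with a stranded kit. The authors aligned reads with STAR (2.7.0d) and counted them per gene with featureCounts (1.6.0), and the deposited values are raw counts, not normalized. Per the file headers the counts use GENCODE vM28 on GRCm39, no strand option was set, and reads in exons of several genes were left out, whereas the study's methods name mm10 and GENCODE M18. Samples were grouped by the treatment label. Symbols were matched by gene identifier for 52081 of 55357 genes (GENCODE vM21).

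The 21876 genes for which 1 or more libraries held 6 or more reads were normalized by TMM and tested with edgeR (4.0.16, quasi-likelihood) in R 4.3.3, with Benjamini-Hochberg adjustment and a threshold of 0.01. The script was tested on simulated data. Standard errors and 95% intervals derive from the F statistic. The study's own test, limma (3.58.1) after voom, DESeq2 (1.42.0), other scalings, filters and designs, and leaving out each library were alternatives. A pseudocount of 0.1 CPM was added before logs for likeness. Limits for a count of 0 cover counting error only. Total counts differed between libraries by less than 1.5 times, and no pair of libraries agreed within sampling noise (chi-square per gene 6.03 to 38.0).

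The shRNA and primer sequences are the study's own, matched to GENCODE vM21 transcripts (GRCm38). Protein identity was computed with Biopython (1.88) from translated coding sequences. Seed sites were searched in each gene's longest coding transcript, on the sense strand.

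For the replicate block, libraries were treated as paired by the replicate numbers in their labels. Each library's deviation from its group mean was correlated with those of the other group over 10908 genes. The correlation was 0.392, 0.189 and 0.461 for libraries with matching numbers and −0.393 to 0.108 for the others. The lowest matching value, 0.189 for the replicate 2 libraries, was close to 0.108 for shCtrl replicate 1 with sh*Pla2g4e* replicate 2. With so few libraries per group, a matching as good can arise by chance, and the genes are not independent. These correlations therefore cannot decide whether the libraries were paired.

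The members and the gene lists were chosen with earlier results of these data known. Genes named in the text were the members, genes that overlap or adjoin them, the 2 genes with the smallest p in each pathway list, the 3 genes most like each member with a mean of at least 1 CPM, and a few more that are marked as named outside this rule. The cell marker genes named were chosen after their values were seen.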

Additional observations from a re-analysis of the deposited data

How the results depend on the processing

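*Pla2g4e* was called lower under all 17 alternatives, and no other member was called in those that gave it a value (16 for *Pla2g4c*, 13 for *Pla2g4f* and 17 for the other 3). Its log2 fold change lay between −1.14 (without sh*Pla2g4e* replicate 1) and −0.83 (without sh*Pla2g4e* replicate 2), and its adjusted p was at most 0.001078. With the replicate block, which treats libraries of the same replicate number as paired, it was −1.001 (adjusted p = 7.746e-13 in edgeR). The 1419 genes called became 2349 with no filter, 3395 with the replicate block, 2813 at an adjusted p of 0.05, and 695 to 1613 when a library was left out (928 without shCtrl replicate 1, 695 without shCtrl replicate 2, 854 without sh*Pla2g4e* replicate 1 and 931 without sh*Pla2g4e* replicate 2). The 7 pathway genes called became 11 with DESeq2, 4 with upper-quartile scaling, 4 with library size alone, 14 with no filter, 18 with the replicate block, 15 at an adjusted p of 0.05 and 3 to 8 without 1 library. With library size alone the median over all genes moved from 0.03 to 0.10 on the log2 scale, and 609 genes were called lower and 796 higher in place of 876 and 543. On the length in which its reads could be counted, *Pla2g4b* was at 0.841 RPKM in shCtrl and 0.810 in sh*Pla2g4e* cultures in place of 0.282 and 0.271. The causes of these moves were not tested, except that fewer libraries were used where 1 was left out and that the last follows from the shorter length.

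No result turned its direction in a call. Of 789 comparisons of an alternative with the main value over the 47 tested genes named beside the members, 71 lost a call and 41 gained one. The block changed no call of a member. *Pla2g4a*, *Pla2g4b*, *Pla2g4c*, *Pla2g4d* and *Pla2g4f* had 0 to 57 reads per library, with a counting error of 15.8% to 70.7%, and their libraries varied by 11.8% to 96.0% within a group. DESeq2 gave no adjusted p for 5514 genes, *Pla2g4f* among them.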
